A study of Mus musculus with 8 samples.

Results

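The genes described here encode the enzymes and the cofactor with which the exocrine pancreas digests dietary fat. The list named 6 genes: Pnlip, Pnliprp1, Pnliprp2, Cel, Clps and Pla2g1b. A gene was taken from the array when a feature (a set of probes summarised to 1 value) carried its symbol and no other. Of the 6 genes, 5 had such a feature, exactly 1 each, out of 18820 genes measured this way. Pnlip, the gene of pancreatic triglyceride lipase itself, had none and was not analysed here.

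RNA of 4 wild type and 4 inducible Sel1L1 knockout samples of mouse pancreas was hybridised to 8 whole-transcript arrays. All mice, controls included, carried 2 floxed Sel1L alleles with exon 6 between loxP sites, on a C57BL/6J background derived from C57BL/6N embryonic stem cells and a β-actin FLPe deleter cross. The knockout group (fl/fl;ERCre+) also carried ERCre, a Cre recombinase fused to the estrogen receptor under an actin promoter, which its control littermates (fl/fl;ERCre-) lacked. Both groups received intraperitoneal tamoxifen (5 mg/ml in sunflower oil, 5 μl per g body weight) on 3 consecutive days at an age of 8 to 20 weeks. The actin promoter is not limited to pancreas or to acinar cells, and the controls had no Cre, so loss of Sel1L in the acinar cell cannot be told apart from its loss elsewhere or from Cre activity. Since the labels number the samples but name no separate animals, the p-values cover the spread among the 4 arrays of a group, some of which may be technical.

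Pancreatic acinar cells make digestive enzymes on the rough endoplasmic reticulum (ER), store them in zymogen granules and release them into the duct. In the gut, triglyceride lipase needs colipase, the small protein encoded by Clps, to work on fat droplets coated with bile salts. Pnliprp1 and Pnliprp2 encode relatives of that lipase; the first shows little lipase activity, while the second also cleaves galactolipids and phospholipids. Cel encodes carboxyl ester lipase, a bile salt-dependent enzyme that hydrolyses cholesteryl and other esters. Pla2g1b encodes the secreted pancreatic phospholipase A2, which is made as a proenzyme and activated by trypsin. Sel1L is the adaptor of the Hrd1 ubiquitin ligase, which marks misfolded ER proteins for degradation, and it has also been linked to the maturation of lipoprotein lipase together with Lmf1.

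The promoters of 4 measured genes are shown because these genes lay on the same side in the deposited values and PTF1, the acinar transcription complex, is known to act on enzyme gene promoters. Each run is the 250 bases before the gene's start in RefSeq (GRCm38.p6), 5′ to 3′ in the direction of transcription. Capitals mark the matches named after them.
Pla2g1b (chr5:115465892-115466141, plus strand): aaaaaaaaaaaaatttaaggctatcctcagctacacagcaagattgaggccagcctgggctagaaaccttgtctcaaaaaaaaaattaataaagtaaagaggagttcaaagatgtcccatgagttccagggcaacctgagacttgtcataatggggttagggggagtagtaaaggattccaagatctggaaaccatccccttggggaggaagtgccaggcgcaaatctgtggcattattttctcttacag
Cel (chr2:28563404-28563653, minus strand): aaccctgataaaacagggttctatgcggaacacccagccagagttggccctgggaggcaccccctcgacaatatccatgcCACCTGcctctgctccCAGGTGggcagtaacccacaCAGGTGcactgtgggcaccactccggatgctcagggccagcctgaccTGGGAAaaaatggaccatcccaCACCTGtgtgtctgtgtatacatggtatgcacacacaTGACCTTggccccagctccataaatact
Pnliprp2 (chr19:58759473-58759722, plus strand): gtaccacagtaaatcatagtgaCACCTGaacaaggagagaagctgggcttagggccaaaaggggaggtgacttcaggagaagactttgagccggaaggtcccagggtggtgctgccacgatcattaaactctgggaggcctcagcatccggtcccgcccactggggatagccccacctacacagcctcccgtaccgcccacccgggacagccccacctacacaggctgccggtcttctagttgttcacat
Pnliprp1 (chr19:58728637-58728886, plus strand): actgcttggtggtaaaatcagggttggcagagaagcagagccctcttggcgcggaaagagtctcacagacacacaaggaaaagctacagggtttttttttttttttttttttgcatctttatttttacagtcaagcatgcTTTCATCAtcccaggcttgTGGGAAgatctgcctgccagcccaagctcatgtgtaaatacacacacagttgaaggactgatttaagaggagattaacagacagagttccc
Each promoter was searched on both strands for 6 motifs, which do not contain one another. An E-box of the kind that PTF1 binds was written as CACCTG, and the core of the box bound by its RBPJ or RBPJL subunit as TGGGAA. The site of NR5A2 and other nuclear receptors was written as AAGGTCA. The others were the core of the box that binds TBP, written as TATAAA, the site of zinc finger factors of the GATA family, written as AGATAA, and the core of the C/EBP-ATF response element, written as TGATGNAA. The Cel promoter held CACCTG 4 times, with the leftmost printed base 170, 154, 134 and 65 bases before the start, a TGGGAA at 87 and an AAGGTCA match at 28. Over all 32851 promoters of the same length, 17.2% held CACCTG, 21.6% TGGGAA and 4.08% AAGGTCA. Pnliprp2 held a single CACCTG, at 228. Pnliprp1 held TGGGAA at 91 and TGATGNAA at 110, the latter found in 3.45% of all promoters. The Pla2g1b promoter matched none of the 6 motifs, and none of the 4 promoters held TATAAA (12.4% of all) or AGATAA (9.99%). A match describes letters in this window and not binding.

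Deposited values are log2 RMA levels (robust multi-array average). Before the comparison, the arrays were examined. The upper quartile of all features lay between 6.95 and 7.01 on the wild type arrays and between 7.14 and 7.15 on the knockout arrays, so the arrays were not equal in distribution as deposited. Wild type replicate 2 stood apart on the second principal component (-35.68; other arrays -11.21 to 24.56), and its mean macrophage marker level was 6.46, the lowest of the wild type arrays, whose highest was 8.97. The label of the tissue was borne out by the acinar markers: 7 of 8 were measured, Cpa1, the gene of a carboxypeptidase, averaged 13.93 in wild type and Ctrb1, a chymotrypsinogen gene, 14.08. Sel1l itself ranged from 12.37 to 12.39 in wild type and from 11.45 to 11.70 in the knockout arrays, a difference of -0.76 (SE 0.0788, limma adjusted p = 0.000196).

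More of the lipid-digesting genes fell than rose in the knockout pancreas. By limma over all 18820 genes with a Benjamini-Hochberg adjusted p under 0.05, 4 of the 5 measured genes were called lower (Pla2g1b, Cel, Pnliprp2 and Clps), 0 were called higher and Pnliprp1 was not called. For all genes the same rule called 12.6% lower, 16.1% higher and 28.7% in either direction. The median difference over the 5 members was -0.30 on the log2 scale, against -0.04 over all genes. In all 5 members every knockout array lay below every wild type array, a pattern shown by 14.6% of all genes. The size of the fall differed among the members, and after quantile normalization Pla2g1b alone of the 5 was called. In bulk tissue, fewer acinar cells and less RNA per acinar cell cannot be told apart.

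**Figure D1:**
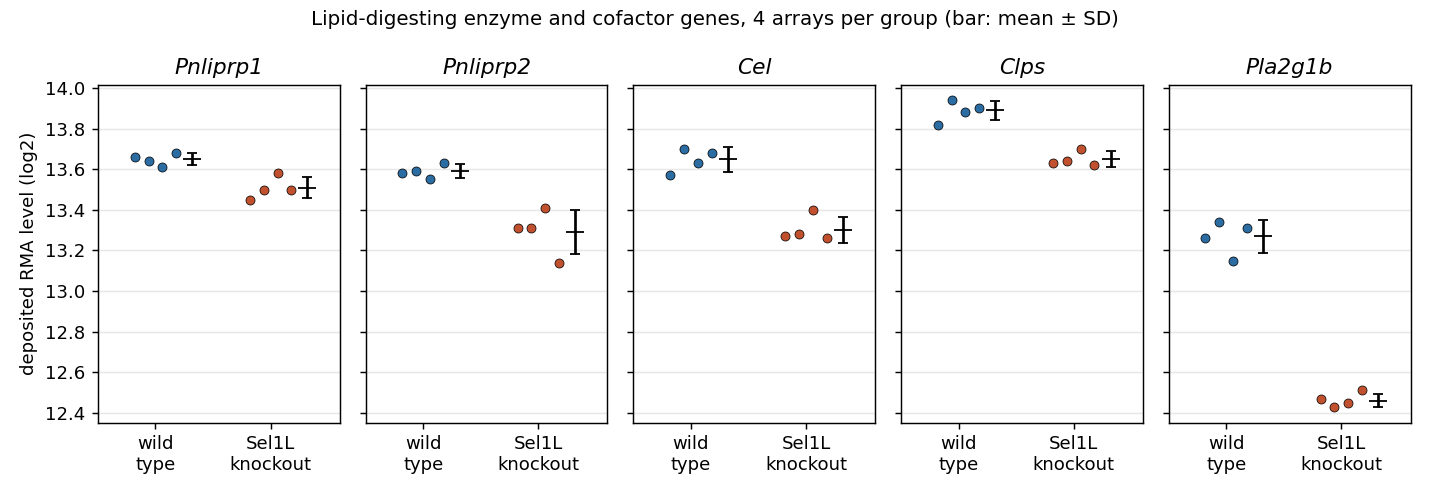
Deposited log2 RMA level of the 5 measured genes on each array, wild type in blue and Sel1L knockout in red, with the group mean and SD (n = 4) beside the points. The groups are separate in every panel; the gap is 0.648 for Pla2g1b and 0.0306 for Pnliprp1.

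Pla2g1b, the phospholipase gene, had the largest difference of the 5. Its levels on wild type arrays 1 to 4 were 13.26, 13.34, 13.15 and 13.31, and on knockout arrays 1 to 4 they were 12.47, 12.43, 12.45 and 12.51. The knockout arrays lay close together and well below the wild type arrays. The mean fell from 13.27 ± 0.0808 to 12.46 ± 0.0329 (SD, n = 4 each), a log2 difference of -0.80 (SE 0.0731, 95% interval -0.97 to -0.64, limma adjusted p = 0.000103), or 1.75-fold. The exact two-sided permutation p was 0.0286, the smallest that 4 against 4 arrays can give. The difference kept its direction and its call in every alternative tried, between -0.71 after quantile normalization and -0.88 after centring each array on its median.

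Cel, the carboxyl ester lipase gene, read 13.57, 13.70, 13.63 and 13.68 on the wild type arrays. On the knockout arrays it read 13.27, 13.28, 13.40 and 13.26. Knockout replicate 3 was the highest of its group and still lay below the lowest wild type array. Cel fell by 0.34 on the log2 scale (SE 0.0733, 95% interval -0.51 to -0.18, limma adjusted p = 0.00794), from 13.65 ± 0.0621 to 13.30 ± 0.0624 (SD, n = 4 each), which is 1.27-fold. After quantile normalization the difference was -0.11 (limma adjusted p = 0.299).

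Clps, the colipase gene, read 13.82, 13.94, 13.88 and 13.90 in wild type. In the knockout it read 13.63, 13.64, 13.70 and 13.62. As for Cel, wild type replicate 1 was the lowest and replicate 2 the highest of the wild type arrays, and replicate 3 was the highest of the knockout arrays. Clps fell by 0.24 (SE 0.0689, 95% interval -0.39 to -0.08, limma adjusted p = 0.0296), from 13.89 ± 0.0484 to 13.65 ± 0.0384 (SD, n = 4 each). This call was lost after quantile normalization (-0.06, limma adjusted p = 0.55) and cyclic loess (-0.20, adjusted p = 0.071). It was also lost without wild type replicate 2 (-0.22, limma adjusted p = 0.0657) or 4 (-0.23, 0.0554) and without knockout replicate 1 (-0.23, 0.0708), 2 (-0.24, 0.0694), 3 (-0.26, 0.0533) or 4 (-0.23, 0.0714).

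Pnliprp2, the gene of the lipase relative with the broader substrate range, read 13.58, 13.59, 13.55 and 13.63 in wild type. In the knockout it read 13.31, 13.31, 13.41 and 13.14, a wider spread that came from replicates 3 and 4. Pnliprp2 fell by 0.30 (SE 0.0788, 95% interval -0.47 to -0.12, limma adjusted p = 0.0209), from 13.59 ± 0.0349 to 13.29 ± 0.109 (SD, n = 4 each), or 1.23-fold. The call was lost without knockout replicate 4 (-0.25, limma adjusted p = 0.0562) and after quantile normalization (-0.04, adjusted p = 0.745).

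Pnliprp1, the gene of the relative with little lipase activity, read 13.66, 13.64, 13.61 and 13.68 in wild type. It read 13.45, 13.50, 13.58 and 13.50 in the knockout. The groups were separate by only 0.0306, between wild type replicate 3 and knockout replicate 3. The difference was -0.14 (SE 0.0688, 95% interval -0.29 to 0.02, limma adjusted p = 0.154) and did not pass the threshold, although the exact two-sided permutation p was 0.0286. After quantile normalization its sign turned (0.07, limma adjusted p = 0.492).

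**Figure D2:**
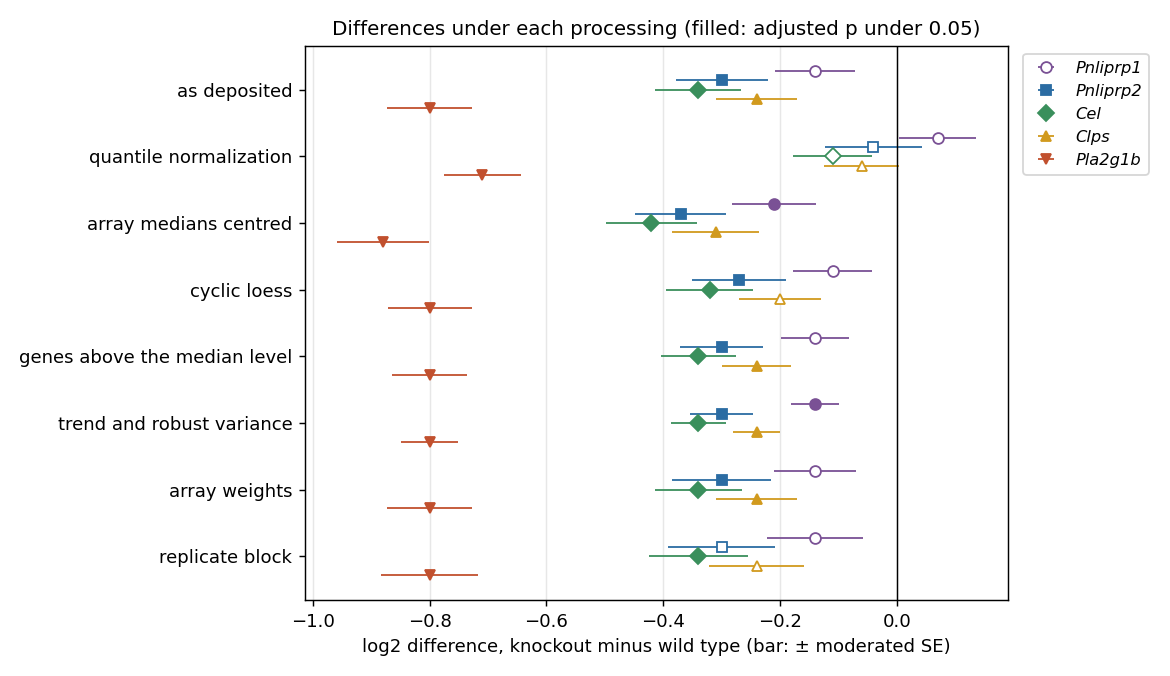
Log2 difference, knockout minus wild type, of the 5 genes (symbols) under the deposited values and 7 other settings, with the moderated standard error; filled symbols passed an adjusted p of 0.05. Pla2g1b stays between -0.88 and -0.71, while the other 4 genes move toward 0, and Pnliprp1 beyond it, after quantile normalization.

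Whether members changed by unequal amounts was tested on the difference between 2 members within each array, which removes any shift common to all genes of an array. A compression of the signal that depends on level would not be removed and was not tested. The other 4 members lay nearer the arrays' maxima than Pla2g1b. All 10 pairs of the 5 measured genes were compared by exact two-sided permutation and adjusted over the pairs. Pla2g1b fell more than each of the other 4 members. The extra fall was 0.67 against Pnliprp1, 0.57 against Clps, 0.51 against Pnliprp2 and 0.46 against Cel, each with non-overlapping groups in 4 of 4 knockout arrays (exact permutation p = 0.0286, the smallest possible, adjusted p = 0.0408). In all, 7 of the 10 pairs reached this smallest p. The adjusted p depends on how many did and does not rank the pairs. With arrays paired by replicate number, as a block, the exact sign-flip p of each was 0.125, the smallest that 4 pairs allow, so no pair could pass. The extra falls of Pla2g1b, in the same order, were 0.77, 0.65, 0.66 and 0.60 after quantile normalization (exact permutation adjusted p = 0.0476 each), a setting added after the data had been seen.

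Among the other genes the differences were smaller. Cel lay below Clps by 0.24 in wild type and by 0.347 in the knockout on the log2 scale, an unequal change of -0.11 (exact permutation adjusted p = 0.0408); after quantile normalization it was -0.05 (adjusted p = 0.357). Relative to Pnliprp1, Cel changed by 0.20 more and Pnliprp2 by 0.16 more (exact permutation adjusted p = 0.0408 each), and Clps by 0.10 more (adjusted p = 0.0714). After quantile normalization the change of Pnliprp2 relative to Pnliprp1 was 0.11 (exact permutation adjusted p = 0.0816). Pnliprp2 differed from Cel by 0.05 (exact permutation adjusted p = 0.343) and from Clps by -0.06 (adjusted p = 0.317), with overlapping groups.

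The levels of all 5 genes were close to the arrays' maxima. Clps came within 0.391 of the highest feature of an array, and Pnliprp1, Pnliprp2 and Cel stayed within 1.14 of it on every array. Pla2g1b lay 0.983 to 1.93 below. Saturation of probes at these levels was not tested. In the range from the mean level of Pla2g1b (12.86) upward there were 39 genes, these 5 included, a range chosen after the data had been seen. Of these 39, 38.5% were called lower and 2.56% higher, with a median difference of -0.13. The range also held 11 ribosomal protein and elongation factor genes, with differences from -0.02 to 0.21. Of these, 0 were called by limma in the deposited values, 3 had an unadjusted p under 0.05, and 6 were called with trend and robust variance.

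**Figure D3:**
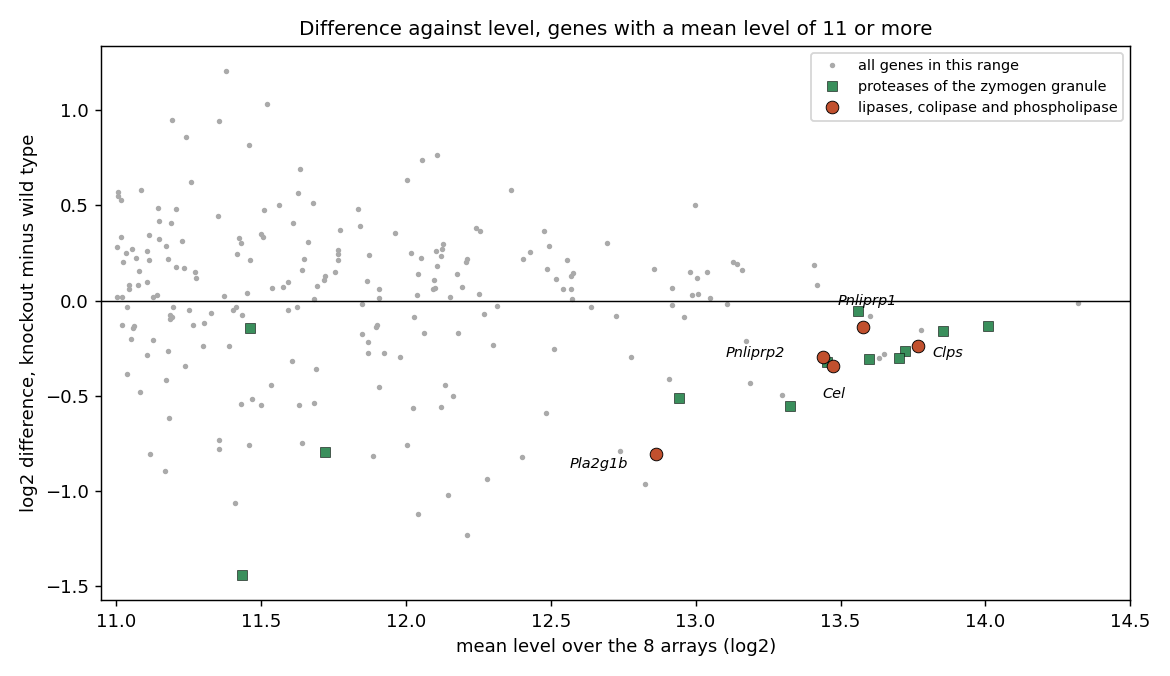
Log2 difference, knockout minus wild type, against the mean level over the 8 arrays for the 234 genes with a mean level of 11 or more. The 5 lipid-digesting genes (red) lie below 0 among the zymogen proteases (green), with Pla2g1b at -0.80 and Pnliprp1 nearest 0 at -0.14.

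The genes most like each member over the 8 arrays were taken by Pearson correlation, a measure that here mostly follows the split between the groups. For Cel they were Clps (r = 0.997), Zg16, the gene of a zymogen granule lectin (0.995), and Ric1 (0.992). For Clps they were Cel (0.997), Ric1 (0.996) and Bpifa2 (0.99). With group means removed, Cel and Clps still had r = 0.969 over the 8 arrays, against 0.583 for Cel with Pnliprp1 and 0.259 for Cel with Pla2g1b. Other genes picked as most alike also kept a high r, 0.946 for Cel with Zg16 and 0.955 for Clps with Ric1. A high value was thus not particular to Cel and Clps. Arrays share their hybridisation and scaling, so these are descriptions. Zg16 fell by 0.43 (SE 0.0741, limma adjusted p = 0.00267).

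For Pla2g1b the most similar genes were Dpp7, encoding a lysosomal or vesicular dipeptidyl peptidase (r = 0.998), Atp13a2, encoding a lysosomal P-type ATPase (0.997), and Smim24 (0.997). For Pnliprp2 they were Lgals12 (0.986), Specc1l (0.979) and Vipr1 (0.979), the last a receptor gene for vasoactive intestinal peptide. For Pnliprp1 they were Olfr165 (0.98), Atp6v0a2 (0.98) and Wfdc15a (0.971). Olfr165, an odorant receptor gene, averaged 2.92 in wild type, below every array's median. The number of genes with r of at least 0.9 was 191 for Pnliprp1, 258 for Pnliprp2, 545 for Cel, 585 for Clps and 863 for Pla2g1b.

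Pnlip, Pnliprp1 and Pnliprp2 are neighbours on chromosome 19 in the RefSeq table, with no other protein-coding gene between them. The nearest protein-coding genes on either side, Ccdc172 and 1700019N19Rik, had levels of 2.84 and 3.44 in wild type, which lie below every array's median. They were called lower as well, by -0.42 (SE 0.0856, limma adjusted p = 0.00627) and -0.39 (SE 0.128, adjusted p = 0.0474), differences whose sizes are rough at such levels. Both calls were lost after cyclic loess (-0.27, limma adjusted p = 0.0588, and -0.25, adjusted p = 0.24), and that of 1700019N19Rik also after quantile normalization, with the replicate block and without any 1 array other than wild type replicate 2. Cel, Clps and Pla2g1b lie apart on chromosomes 2, 17 and 5.

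The other secreted enzymes of the acinar cell gave the nearest comparison. By the same rule 12.6% of all genes were called lower and 16.1% higher. Of 13 proteases of the zymogen granule measured, 8 were called lower and 0 higher, with a median of -0.31 beside -0.30 for the lipid-digesting genes; after quantile normalization 4 were called lower. Cela3a, an elastase gene, fell by 1.86 (SE 0.211, limma adjusted p = 0.000316), Try4, a trypsinogen gene, by 0.80 (SE 0.144) and Cela1 by 0.56 (SE 0.0746). Trypsinogen and elastase genes have close paralogs that may cross-hybridise. Of 3 amylase and nuclease genes measured, Amy1 was the only amylase gene. It rose by 1.12 (SE 0.108, limma adjusted p = 0.000137), from a range of 10.01 to 10.46 to one of 11.24 to 11.45. The other listed amylase genes, Amy2a1, Amy2a5 and Amy2b, were not measured, so the rise of Amy1 cannot be read as one of pancreatic amylase. Rnase1, the gene of pancreatic ribonuclease, fell by 0.30 (SE 0.0708) and Dnase1 by 0.27 (SE 0.0863, at a wild type level of 3.89), and after quantile normalization neither was called. Dnase1 also lost its call after cyclic loess (-0.15, limma adjusted p = 0.186), with trend and robust variance, with the replicate block and without any 1 array other than wild type replicate 3 (limma adjusted p = 0.0554 to 0.103). The difference between these lists and the lipid-digesting genes was not tested.

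**Figure D4:**
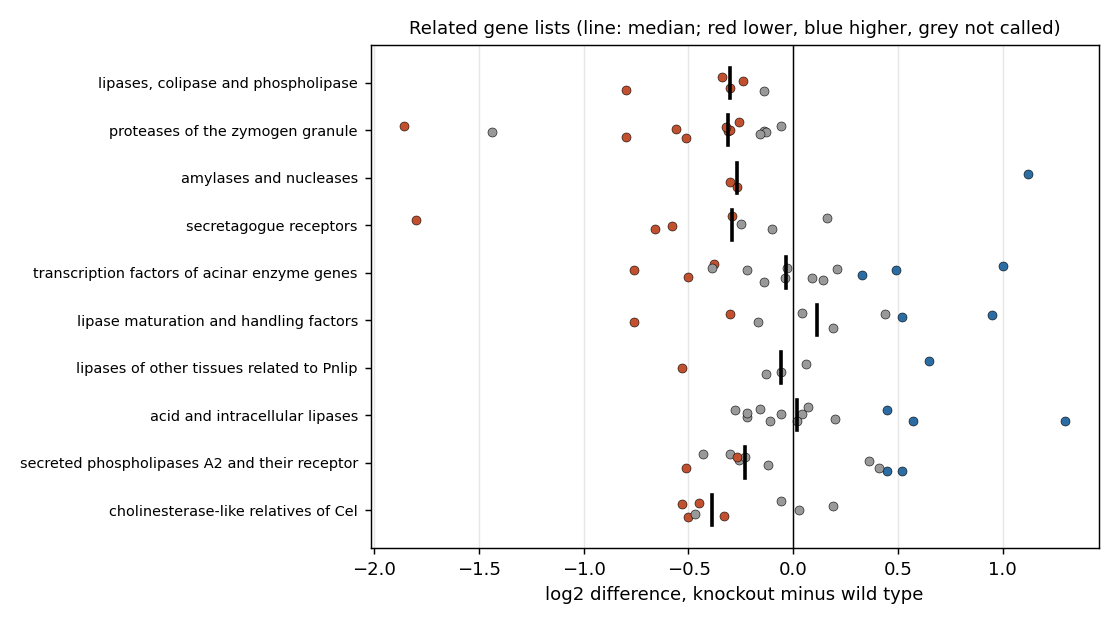
Log2 difference, knockout minus wild type, of each measured gene in the lists described here; the black line is the list median, red genes were called lower, blue higher and grey not called. The lipid-digesting genes (median -0.30) sit beside the zymogen proteases (-0.31). Amy1, the only amylase gene measured, stands alone on the right of its row at 1.12.

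Among 8 factors that help lipases fold or act, 2 rose and 2 fell, beside 16.1% of all genes called higher and 12.6% called lower. Lmf1, which encodes the ER membrane protein lipase maturation factor 1, ranged from 9.04 to 9.09 on the wild type arrays and from 9.49 to 9.76 on the knockout arrays, with no overlap. It rose by 0.52 (SE 0.081, limma adjusted p = 0.00172). Calr, the gene of the ER chaperone calreticulin, rose by 0.95 (SE 0.12). The falls were in Sel1l, given above, and Lmf2, a relative of Lmf1 (-0.30, limma adjusted p = 0.0278). Sel1l is the gene targeted by the knockout, so its fall was set by the design and is no result about the list. The call of Lmf2 was lost without wild type replicate 1 or 4 or knockout replicate 1, 2 or 3 (-0.32 to -0.25, limma adjusted p = 0.0521 to 0.0811), which left only that of Sel1l.

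The listed lipase genes outside the members did not move one way. The share over all genes was 12.6% called lower and 16.1% called higher. Among 5 genes of the same protein family as Pnlip, Lpl, the gene of lipoprotein lipase, fell by 0.53 (SE 0.137, limma adjusted p = 0.0186) with groups that overlapped at 8.90 to 8.91. Its call was lost without knockout replicate 2 (-0.50, limma adjusted p = 0.0514), 3 (-0.49, 0.0556) or 4 (-0.47, 0.0542), when 0 genes of the family were called lower. Pla1a, a phospholipase A1 gene, rose by 0.65 (SE 0.193, limma adjusted p = 0.0322), a call lost after quantile normalization and cyclic loess and without wild type replicate 1 or knockout replicate 1 or 3, when 0 genes of the family were called higher. Among 13 genes listed as acid and intracellular lipases 3 rose and 0 fell by limma as deposited, while 2 were called lower after centring on array medians. Abhd6, encoding a monoacylglycerol hydrolase, rose by 1.30 (SE 0.175), Lipe, encoding hormone-sensitive lipase, by 0.57 (SE 0.093) and Mgll, encoding monoacylglycerol lipase, by 0.45 (SE 0.099, limma adjusted p = 0.00948). With the mean of its features Lipe differed by 0.31 (limma adjusted p = 0.0305), and after cyclic loess Mgll was not called (0.31, adjusted p = 0.0529). Adipoq and Plin1, markers of adipocytes, averaged 3.16 and 4.28 in wild type, below every array's median. By limma as deposited 0 of 6 adipocyte markers were called and 1 had an unadjusted p under 0.05, Fabp4 (0.34, limma adjusted p = 0.0953). Without wild type replicate 3, 1 adipocyte marker was called higher.

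Among 11 other secreted phospholipase A2 genes and their receptor, 2 were called higher and 2 lower, beside 16.1% higher and 12.6% lower of all genes. Pla2g12a rose by 0.52 (SE 0.103, limma adjusted p = 0.00591) and Pla2g5 by 0.45 (SE 0.137), while Pla2g12b fell by 0.51 (SE 0.0924) from a low level of 3.75. The call of Pla2g5 was lost after centring on array medians (0.38, limma adjusted p = 0.0513) and without wild type replicate 1, 2 or 4 or knockout replicate 2 or 3 (0.34 to 0.48, limma adjusted p = 0.0533 to 0.0801). Without wild type replicate 2 or knockout replicate 2 or 3, 1 gene of the list was called higher and 1 lower; 1 was called lower also without wild type replicate 1 or knockout replicate 1, after cyclic loess and with trend and robust variance, 3 lower after centring, and among genes above the median level 1 was called higher and 0 lower. Of 8 relatives of Cel in the cholinesterase-like family, 0 rose and 4 fell, among them Bche, the gene of butyrylcholinesterase, by 0.50 (SE 0.141), Ache by 0.45 (SE 0.138) and Tg by 0.33 (SE 0.102). Ache and Tg lay below every array's median in wild type (3.92 and 3.55). The limma adjusted p of these 4 lay between 0.0263 (Bche) and 0.0484 (Nlgn3). Without knockout replicate 1, 2 or 4, 0 genes of this list were called lower by limma. In those settings the lower calls over all genes also went from 2379 to 1800, 1624 and 1692. In this list 1 gene was called lower without wild type replicate 1 or 4 and without knockout replicate 3. The same number was called with the replicate number as a block and after quantile normalization or cyclic loess. Bche itself was lost without wild type replicate 4 (-0.49, limma adjusted p = 0.0528) or knockout replicate 1 (-0.48, 0.0616), 2 (-0.52, 0.0508) or 4 (-0.44, 0.0728).

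Of 14 transcription factors of acinar enzyme genes, 3 were called higher and 3 lower, beside 16.1% higher and 12.6% lower of all genes. Bhlha15, which encodes the acinar factor MIST1, fell by 0.76 (SE 0.084, limma adjusted p = 0.000274), from a range of 11.68 to 11.95 to one of 11.03 to 11.12. Prox1 rose by 1.00 (SE 0.179) and Tcf3, encoding E proteins that can partner PTF1A, by 0.33 (SE 0.0794); after quantile normalization or cyclic loess 1 factor was called higher, and Tcf3 was not. In both of these settings 4 factors were called lower. Centring on array medians gave 4 lower and 2 higher. Trend and robust variance gave 4 lower and 3 higher, as did leaving out the genes of low level. The number called lower was 5 without wild type replicate 3 (4 higher) and 2 without knockout replicate 3 (2 higher). Ptf1a itself was at -0.14 (SE 0.125, limma adjusted p = 0.42). Of 7 secretagogue receptors, through which gut hormones and nerves trigger enzyme release, 4 fell and 0 rose. Grpr, the receptor of gastrin-releasing peptide, fell by 1.80 (SE 0.121), Chrm1, a muscarinic receptor, by 0.66 (SE 0.142) and Vipr1 by 0.58 (SE 0.106). Chrm3, another muscarinic receptor, had a higher wild type level than Chrm1 (8.17 against 5.6). It was at 0.16 and not called (limma adjusted p = 0.179).

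Markers of other cell types were set beside these falls. Their counts stand beside 12.6% of all genes called lower and 16.1% called higher. Endothelial markers were higher, with 3 of 5 called and a mean level of 7.29 to 7.56 in wild type against 7.62 to 7.90 in the knockout; 0 were called after quantile normalization or cyclic loess and without wild type replicate 1 or knockout replicate 3 or 4, and 1 without wild type replicate 2. Of 4 alpha, delta and PP cell markers 2 rose, with overlapping mean levels (7.58 to 8.66 against 8.12 to 9.26), and 1 was called higher without wild type replicate 1 or 3 or knockout replicate 2, 3 or 4, and after quantile normalization, centring or cyclic loess. Of 7 acinar markers outside the lipid-digesting genes 3 fell and 0 rose, and the mean level of the 7 went from 12.70 to 12.86 down to 12.46 to 12.55. The 3 were Cpb1, Cela1 and Bhlha15, which were already counted among the proteases or transcription factors above. After quantile normalization 2 acinar markers were called lower and 1 higher. Centring on array medians, or trend and robust variance, gave 5 lower and 0 higher. Of 5 beta cell markers 2 fell, with overlapping mean levels (6.70 to 7.25 against 6.32 to 7.11). Of 6 T and B cell markers 2 fell (mean level 3.97 to 4.27 against 3.70 to 3.99), and 1 of 6 gut and liver markers (3.83 to 4.19 against 3.63 to 3.85) and 1 of 4 muscle markers (5.28 to 5.65 against 5.24 to 5.46) fell as well. Of these 3 lists the T and B cell markers had 0 calls after cyclic loess and without wild type replicate 1 or knockout replicate 2, 3 or 4, and the other two lists had 0 without wild type replicate 2 or knockout replicate 2 or 4. Of 7 macrophage, 4 neutrophil and 6 stellate cell markers 0 were called by limma, and 0 had an unadjusted p under 0.05; without wild type replicate 2, 2 macrophage markers and 1 stellate marker were called lower. Of the neutrophil markers, 1 was called lower without wild type replicate 4 or knockout replicate 2. Of 4 duct markers 0 were called and 2 had an unadjusted p under 0.05, while 1 was called higher without knockout replicate 3 or 4. The part of these shifts in the falls of the lipid-digesting genes was not tested; without wild type replicate 2, in which macrophage and stellate markers were lowest and Cel, Clps and Pla2g1b highest of the wild type arrays, Pla2g1b differed by -0.78 (limma adjusted p = 0.000339), Cel by -0.32 (adjusted p = 0.0201) and Clps by -0.22 (adjusted p = 0.0657), a call lost.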

How the data were processed

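Gene expression was measured in 8 mouse pancreas samples on 1-colour whole-transcript arrays; 100 ng of RNA entered cDNA synthesis, per the labels' protocols. The deposited log2 values were made with RMA, per the submitters' processing notes; the sources used here do not name its version, the chip definition or the log base. The table held 35556 features; GEO's annotation gave 1 symbol for 21218, several for 1881 and no gene for 12457. Where a gene had several features, that with the highest mean over the arrays stood for it. This left 18820 genes, dim ones included. Entrez identifiers of 21185 features matched RefSeq and changed 0 symbols. Genotype was fitted with limma 3.58.1 in R 4.3.3 (lmFit, eBayes, 6 residual degrees of freedom), with Benjamini-Hochberg adjustment over all genes. Single values were tested by exact permutation (scipy 1.17.1). The plan listed 6 members and their pairs; 5 were measured. The fit was tested on simulated data. Members and lists were chosen with earlier results of these data known. Named were the members, Sel1l, Lmf1, the 3 genes most like each member (predicted genes, Rik clones and small RNAs left out), and of each list the 3 called genes with the smallest p. Lmf2, Ptf1a, Chrm3, the chromosome 19 neighbours, and the markers were added after their values were seen. Promoters of 5 listed genes were matched in RefSeq's table, of which 4 are printed. Alternatives were other normalizations, variance models, feature choices, the replicate block and leaving out each array. Array number limits the precision. Plots used matplotlib 3.10.9 (Python 3.11.15).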

Additional observations from a re-analysis of the deposited data

Results flagged for a closer look

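A sample was examined again when its distance to the nearest other sample of its group of 4 was too large a share of the group's range by Dixon's 95% critical value, which chance gives in about 1 of 20 groups. Of 62 groups (31 genes in each genotype), 3 met this. Cel in Sel1L knockout replicate 3 was 13.40, against 13.26 to 13.28 in the other knockout arrays; without that array Cel differed by -0.37 (limma adjusted p = 0.0151). Sel1l in Sel1L knockout replicate 4 was 11.45, against 11.66 to 11.70 in the others. Grpr in Sel1L knockout replicate 2 was 6.87, against 6.40 to 6.48.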

How the results depend on the processing

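After quantile normalization, which gives every array the same distribution of values, the differences were 0.07 for Pnliprp1 (turned in sign, limma adjusted p = 0.492), -0.04 for Pnliprp2 (0.745), -0.11 for Cel (0.299) and -0.06 for Clps (0.55), and the pairs gave 0.11 for Pnliprp1 minus Pnliprp2 (exact permutation adjusted p = 0.0816), 0.13 for Pnliprp1 minus Clps (0.0476), -0.05 for Cel minus Clps (0.357) and 0.02, turned in sign, for Pnliprp2 minus Clps (0.914). Cyclic loess ended the call of Clps (-0.20, limma adjusted p = 0.071). Pnliprp1 was called after centring on array medians (-0.21, 0.0456) and with trend and robust variance (-0.14, 0.0244). The cause was not tested in these cases. The labels do not say whether the replicate numbers pair the samples. Deviations from the group means correlated at 0.222, 0.153, -0.273 and -0.02 for replicates 1 to 4, too few values to settle it. Only for wild type replicate 1 was the knockout array of the same number the closest. With the replicate block Pnliprp2 (-0.30, limma adjusted p = 0.0573) and Clps (-0.24, 0.0734) missed the threshold and 4678 genes were called against 5406. Under the block 7 pairs that had passed reached the exact p of 0.125, the smallest 4 pairs allow: 0.16, 0.20 and 0.67 for Pnliprp1 minus Pnliprp2, Cel and Pla2g1b, 0.51, 0.46 and 0.57 for Pnliprp2, Cel and Clps minus Pla2g1b, and -0.11 for Cel minus Clps. Leaving out each array in turn gave ranges of -0.16 to -0.12 for Pnliprp1, -0.33 to -0.25 for Pnliprp2, -0.37 to -0.32 for Cel, -0.26 to -0.22 for Clps and -0.84 to -0.78 for Pla2g1b. Over all genes, 2379 were called lower, 3969 after centring, 1163 among the 9410 genes above the median level, where fewer genes were tested, and 1517 to 2371 with an array left out (1517 without Sel1L knockout replicate 3). Higher genes made up 56.0% of calls as deposited, 42.9% after quantile normalization, 36.3% after centring, 48.1% after cyclic loess and 72.2% among genes above the median level. The pair differences with an array left out kept their direction but 3 arrays against 4 cannot reach a p under 0.05.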
